A study of Homo sapiens with 16 samples.

Results

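The insulin-like growth factor (IGF) axis was followed through 10 genes in LNCaP prostate cancer cells. They are the secreted binding proteins IGFBP2, IGFBP3, IGFBP4, IGFBP5 and IGFBP6, the receptors IGF1R, IGF2R and INSR, and the receptor substrates IRS1 and IRS2. The genes were chosen by symbol, with earlier results of these data known, and all 10 matched 1 of the 60676 gene IDs in the count tables. LNCaP is an androgen-responsive line from a lymph node metastasis of a prostate adenocarcinoma. Unedited cells (WT) were compared with cells in which CRISPR-Cas9 had knocked out both RB and p53 (double knockout, DKO). Both genotypes grew in RPMI-1640 with fetal bovine serum and received 50 µM enzalutamide (EZ), an antagonist of the androgen receptor, or the same volume of its solvent DMSO for 6 days. The 4 groups, WT DMSO, WT EZ, DKO DMSO and DKO EZ, held 4 libraries each, all from total RNA depleted of ribosomal RNA. Whether the DKO cells were 1 clone or a pool, and whether replicates were separate cultures, is not given in the sources used here, so p-values measure the spread between these libraries, which may be technical.

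IGF1 and IGF2 are secreted ligands that act through IGF1R, a receptor tyrosine kinase, and in part through INSR, the insulin receptor. Both receptors phosphorylate IRS1 and IRS2, adaptor proteins that recruit PI3K and so switch on AKT and mTOR. The binding proteins hold IGFs outside the cell and either keep them from the receptor or carry them to it, and proteases that cut the binding proteins free the ligand. IGF2R, also known as the cation-independent mannose-6-phosphate receptor, takes IGF2 up for degradation and carries newly made enzymes to lysosomes.

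Libraries held 11823438 to 47678648 counts with a median of 23919882. RB1, the gene of RB, lay between 95.6 and 128 CPM (counts scaled by library size) in the 8 WT libraries and between 9.04 and 13.4 CPM in the 8 DKO libraries. Luminal prostate markers summed to between 2477 and 5484 CPM over the 16 libraries, and all 6 leukocyte markers stayed under 1 CPM in every library. MKI67, a marker of cycling cells, measured 17.6 CPM in WT EZ replicate 1 and 47.2 CPM in DKO EZ replicate 1, against 114 to 186 CPM in the other 6 EZ libraries. Replicate 4 of the DMSO groups was also low in MKI67, at 34.0 CPM in WT and 81.7 CPM in DKO. The share of counts from the noncoding RNA RN7SL1 parted 6 libraries (0.220% to 0.621%: replicate 1 of every group and replicate 2 of both DKO groups) from the other 10 (at most 0.117%). For the calls of the 10 members, values are also given by RN7SL1 set and, for IGFBP3, without replicate 1 of the EZ groups. No fit left out only replicate 4 of both DMSO groups together. Results of genes outside the 10 members are not given by RN7SL1 set.

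The sequences just before the RefSeq starts of 3 genes are shown because these genes carry results given below: IGFBP3 between treatments, and IGF2R and INSR, which moved together, between genotypes. Each window holds the 250 bases before the RefSeq start on GRCh38.p14, written 5′ to 3′ on the strand of the gene. Capitals mark GC boxes, searched as GGGCGG on both strands, so that CCGCCC counts too and neighbouring boxes may overlap. The IGFBP3 window is chr7:45921273-45921522 on the minus strand, the IGF2R window chr6:159968832-159969081 on the plus strand, and the INSR window chr19:7294415-7294664 on the minus strand. RefSeq starts differ from those of the GENCODE v29 annotation used for gene coordinates below. By GENCODE v29 the IGFBP3 window lies inside the gene (chr7:45912245-45921874), and the INSR gene starts at 7294034, short of its window.
IGFBP3: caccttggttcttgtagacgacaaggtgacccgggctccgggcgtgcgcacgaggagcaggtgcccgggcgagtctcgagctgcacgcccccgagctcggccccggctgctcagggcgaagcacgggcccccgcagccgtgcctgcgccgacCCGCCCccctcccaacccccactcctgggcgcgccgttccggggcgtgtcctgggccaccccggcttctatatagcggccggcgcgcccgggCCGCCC
IGF2R: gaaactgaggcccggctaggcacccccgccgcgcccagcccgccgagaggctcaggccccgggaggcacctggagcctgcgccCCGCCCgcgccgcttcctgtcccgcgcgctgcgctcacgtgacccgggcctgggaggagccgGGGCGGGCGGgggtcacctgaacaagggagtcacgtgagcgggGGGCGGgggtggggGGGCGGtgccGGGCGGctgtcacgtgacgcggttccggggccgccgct
INSR: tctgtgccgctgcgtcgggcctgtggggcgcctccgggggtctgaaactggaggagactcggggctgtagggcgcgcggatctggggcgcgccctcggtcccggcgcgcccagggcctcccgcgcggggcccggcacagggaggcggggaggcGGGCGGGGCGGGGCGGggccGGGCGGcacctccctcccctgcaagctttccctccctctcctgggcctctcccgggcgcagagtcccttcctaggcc
The IGFBP3 window held 2 GC boxes, the IGF2R window 6 and the INSR window 4. All 3 windows were rich in G and C, at 76.0%, 79.2% and 78.4% of bases, against a median of 58.0% over the 35116 promoters in the table. None of the 3 held the androgen receptor half-site AGAACA or the FOXO motif GTAAACA on either strand. An E2F motif (TTTGGCGC, TTTCGCGC, TTTCCCGC or TTTGCCGC) and the p53 half-site decamer were also absent from both strands. These letters occurred in 12.4%, 2.98%, 2.79% and 5.57% of all such windows, and a GC box in 42.6%. The 10 genes had 12 windows in the table, 3 of them for IGFBP2, and a GC box was found in windows of 9 of the 10 genes. The IGFBP5 window had none. A match describes letters and does not show that a factor binds there.

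In level per length, IGF2R stood above the other members in WT DMSO, and IGFBP4 and IGFBP6 were close to absent. The means were 54.0 ± 4.30 CPM per kilobase of exons (SD, n = 4) for IGF2R, 9.71 ± 5.12 for IGF1R, 9.35 ± 0.983 for INSR, 5.81 ± 1.25 for IGFBP2, 4.41 ± 6.49 for IGFBP5, 2.91 ± 1.83 for IGFBP3, 1.27 ± 0.586 for IRS2 and 0.639 ± 0.290 for IRS1. The libraries of IGF2R did not overlap with those of IGF1R, and those of INSR did not overlap with those of IGFBP2. Every other pair of neighbours in this order overlapped. In WT EZ, IGFBP3 moved up to the place after IGF2R, at 32.2 ± 36.8 CPM per kilobase, with libraries from 10.2 to 87.3. IGFBP4 had 37 counts over all 16 libraries and at most 15 in 1 library, and IGFBP6 had 11 counts in all and at most 3. Both were too low to be tested, which left 8 members. For counting error alone, 3 counts over a group correspond to 0.0264 to 0.0284 CPM.

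**Figure D1:**
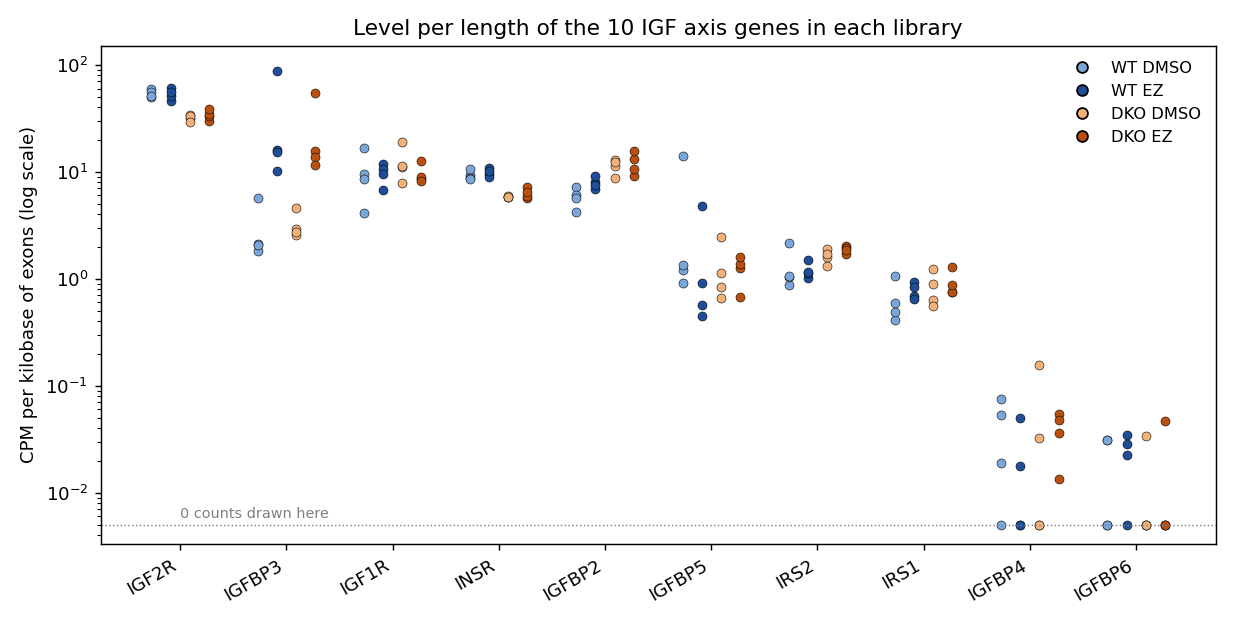
Level of each of the 10 genes in CPM per kilobase of exons (log axis), with 1 point per library coloured by group (WT or DKO, DMSO or EZ) and libraries with 0 counts drawn on the dotted line. IGF2R is the highest in most libraries, IGFBP3 ranges from 1.82 in WT DMSO to 87.3 in WT EZ, and IGFBP4 and IGFBP6 lie near the bottom.

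IGFBP3, the main carrier of IGFs in blood, was the 1 member called higher with enzalutamide in WT cells. The fit behind this call did not pair libraries by replicate number. The IGFBP3 gene lies at chr7:45912245-45921874 on the minus strand (GENCODE v29, GRCh38). The 4 WT DMSO libraries measured 8.31, 9.69, 9.46 and 25.8 CPM (replicates 1 to 4; mean 13.3 ± 8.36, SD, n = 4). The 4 WT EZ libraries measured 399, 73.1, 69.9 and 46.8 CPM (147 ± 168). Every WT EZ library lay above every WT DMSO library, and replicate 1 stood far above the other 3. The fitted change was 11.0-fold, a log2 fold change of 3.46 ± 0.76 (SE; edgeR quasi-likelihood test, adjusted p = 0.0247). Of the 8 members tested 1 was called, against 3.32% of all 21810 genes tested (2.25% higher), and 1 member had groups that did not overlap, against 9.59% of all genes.

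In DKO cells IGFBP3 moved the same way but missed the threshold. DKO DMSO libraries measured 11.6, 13.3, 12.4 and 20.9 CPM (14.6 ± 4.31, SD, n = 4), and DKO EZ libraries 251, 70.7, 62.3 and 53 CPM (109 ± 94.8). The groups did not overlap here either, and replicate 1 was again the highest EZ library. The log2 fold change was 2.90 ± 0.74 (edgeR adjusted p = 0.0774). None of the 8 members was called in this comparison, against 1.48% of all genes. At an unadjusted p under 0.05 there was 1, IGFBP3, against 13.3% of all genes, and DESeq2 called IGFBP3 alone (adjusted p = 0.00336), against 3.49%. Groups that did not overlap were seen for 9.61% of all genes. Subtracting the WT response from the DKO response gave -0.56 ± 0.98 on the log2 scale, and this difference was not called (edgeR adjusted p = 1.00). No gene of the 21810 was called for that difference by the edgeR fit without pairing (0%), with 648 (2.97%) at an unadjusted p under 0.05. DESeq2 called 4, and edgeR with the replicate number as a block within each genotype called 39.

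Both IGFBP3 results depended on single libraries. With replicate 1 of both EZ groups left out, the log2 fold change was 2.25 in WT (edgeR adjusted p = 0.00398) and 2.08 in DKO (0.0121). Both passed, in fits that called 2.52% and 0.998% of all genes. Without WT EZ replicate 1 alone, the WT change was 2.25 with an adjusted p of 0.0544 and the DKO change 2.89 with 0.0170. On leaving out any 1 of the other 15 libraries, DKO EZ replicate 1 among them, the DKO change missed the threshold. The highest edgeR adjusted p was 0.236, without DKO DMSO replicate 2. The WT call was also lost on leaving out replicate 1, 2 or 3 of WT DMSO (edgeR adjusted p = 0.0646, 0.101 and 0.0947). With the replicate number as a block within each genotype, the changes were 2.99 in WT (edgeR adjusted p = 0.0847) and 2.58 in DKO (0.129). In the 10 libraries with little RN7SL1 the WT change was 2.07 (edgeR adjusted p = 0.0273) and the DKO change 1.80 (0.318), and in the other 6 they were 5.56 (0.292) and 3.64 (0.272). In those 6 each WT group is 1 library, assumed to vary like the DKO groups of 2, so that their p-values say nothing about the stability of the result.

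Between libraries of the same replicate number, IGFBP3 was higher in EZ in 4 of 4 pairs of each genotype. The folds in WT were 48, 7.55, 7.39 and 1.81 for replicates 1 to 4. In DKO they were 21.6, 5.30, 5.02 and 2.53. The highest fold was in replicate 1 and the lowest in replicate 4 in both genotypes. The library with the most IGFBP3 was the one with the least MKI67 in each of the 4 groups: replicate 4 in both DMSO groups and replicate 1 in both EZ groups. The part of this in the change of IGFBP3 was not tested. At a given treatment the genotypes did not part IGFBP3, with log2 differences of DKO against WT of 0.13 ± 0.71 in DMSO (edgeR adjusted p = 0.926) and -0.43 ± 0.69 in EZ (0.731).

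**Figure D2:**
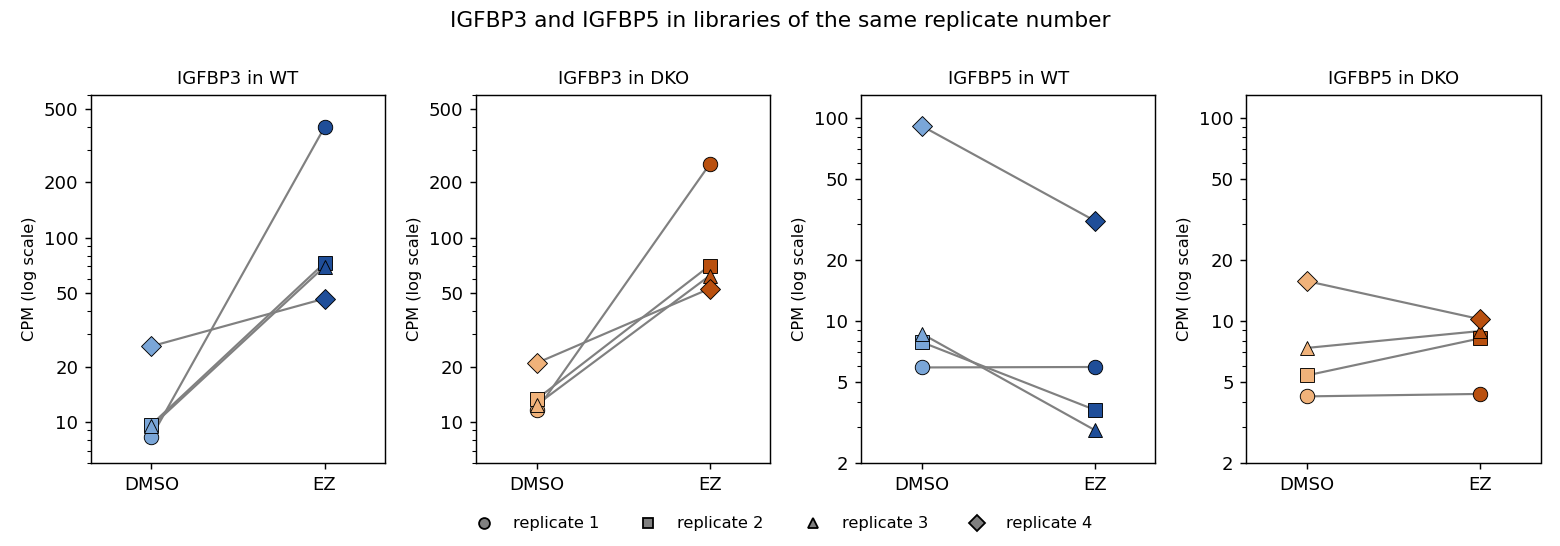
CPM (log axis) of IGFBP3 and IGFBP5 in DMSO and EZ, with a line joining the 2 libraries of the same genotype and replicate number. All 8 IGFBP3 lines go up, most steeply for replicate 1, while IGFBP5 goes down in replicates 2 to 4 of WT and in replicate 4 of DKO.

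IGFBP5, a binding protein that also attaches to the extracellular matrix, was the most uneven member. WT DMSO libraries measured 5.90, 7.86, 8.65 and 91.1 CPM, and WT EZ libraries 5.93, 3.65, 2.90 and 31.1 CPM. Replicate 4 was the highest library of both groups and also of DKO DMSO (4.25, 5.39, 7.36 and 15.7 CPM) and DKO EZ (4.37, 8.20, 8.91 and 10.2 CPM). The log2 change with EZ in WT was -1.37 ± 0.93 and was not called (edgeR adjusted p = 0.542). On leaving out 1 library at a time it ranged from -2.8 to 0.63, so its direction depended on single libraries. With the replicate block within genotype it was -1.09 ± 0.27 and was called lower (edgeR adjusted p = 0.0313), in a fit that called 12.1% of all genes. In that fit IGFBP5 was the 1 member called and IGFBP3 was not. The same-number log2 ratios in WT were 0.01, -1.11, -1.58 and -1.55 for replicates 1 to 4. In DKO the log2 change with EZ was -0.05 ± 0.94 (edgeR adjusted p = 0.993). DKO against WT in DMSO gave -1.78 ± 0.95 (edgeR adjusted p = 0.226), which turned to 0.19 without WT DMSO replicate 4.

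IGFBP2, a binding protein often abundant in tumours, was higher in DKO than in WT cells in both treatments. WT DMSO libraries measured 34.5, 29.1, 27.3 and 20.0 CPM (27.7 ± 5.97, SD, n = 4) and DKO DMSO libraries 61.6, 42.0, 54.4 and 58.5 CPM (54.1 ± 8.60). The groups did not overlap, and the difference was 1.95-fold, a log2 value of 0.97 ± 0.18 (edgeR adjusted p = 0.00103). In EZ, WT libraries measured 33.2, 38.3, 35.7 and 43.4 CPM (37.7 ± 4.33) and DKO libraries 43.7, 50.4, 62.3 and 73.7 CPM (57.5 ± 13.2). The highest WT EZ and lowest DKO EZ libraries lay side by side without overlap, and the difference was 1.53-fold (0.61 ± 0.18, edgeR adjusted p = 0.0207). The EZ call was lost without WT EZ replicate 1, 2 or 3 (edgeR adjusted p = 0.0643, 0.0509 and 0.0580). The change of IGFBP2 with the drug was not called in WT (0.44 ± 0.18, edgeR adjusted p = 0.222) or DKO (0.09 ± 0.18, 0.912).

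IGFBP2 and IGFBP5 are neighbours on chromosome 2, at chr2:216632828-216664436 on the plus strand and chr2:216672105-216695525 on the minus strand. Their annotated ends are 7668 bases apart. Over the 16 libraries the Pearson correlation of their log2 CPM was -0.29, so that the neighbours did not follow each other closely.

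Per length, IGFBP3 took a larger share of the summed level of the 5 binding proteins under the drug. It made up 18.2% to 23.4% of that sum in WT DMSO and 15.8% to 23.5% in DKO DMSO. In EZ it made up 42.3% to 91.7% in WT and 40.4% to 84.7% in DKO. The sum itself was 9.19 to 24.1 CPM per kilobase in WT DMSO, 23.3 to 95.2 in WT EZ, 12.6 to 19.5 in DKO DMSO and 27.3 to 64.8 in DKO EZ. IGFBP2 made up most of the sum in 7 of the 8 DMSO libraries. The exception was WT DMSO replicate 4, where IGFBP5 made up 58.7%.

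IGF2R and INSR were both lower in DKO than in WT cells, with and without the drug. WT DMSO libraries measured 1058, 992, 894 and 910 CPM of IGF2R (963 ± 76.7, SD, n = 4) and DKO DMSO libraries 563, 604, 598 and 525 CPM (573 ± 36.5). WT EZ libraries measured 819, 1072, 919 and 999 CPM (952 ± 109) and DKO EZ libraries 537, 596, 615 and 689 CPM (609 ± 62.6). All 8 DKO libraries lay below all 8 WT libraries. IGF2R was 1.68-fold lower in DMSO (log2 -0.75 ± 0.11, edgeR adjusted p = 0.000149) and 1.56-fold lower in EZ (-0.64 ± 0.11, 0.000561).

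INSR, at chr19:7112255-7294034 on the minus strand, measured 98.4, 92.0, 88.7 and 112 CPM in WT DMSO (97.7 ± 10.3, SD, n = 4) and 60.8, 60.6, 62.2 and 60.9 CPM in DKO DMSO (61.1 ± 0.751). The DKO DMSO libraries were nearly equal. In EZ the WT libraries measured 113, 101, 93.5 and 106 CPM (103 ± 8.32) and the DKO libraries 75.1, 60.0, 62.6 and 67.1 CPM (66.2 ± 6.64). Here too all 8 DKO libraries lay below all 8 WT libraries. INSR was 1.60-fold lower in DMSO (log2 -0.68 ± 0.10, edgeR adjusted p = 0.000131) and 1.56-fold lower in EZ (-0.64 ± 0.10, 0.000211).

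Between genotypes, 3 of the 8 members were called in each treatment: IGFBP2 higher, IGF2R and INSR lower. This stood against 18.6% of all genes in DMSO (8.91% higher and 9.70% lower) and 20.7% in EZ (9.29% higher and 11.4% lower). The groups did not overlap for 3 members in DMSO and 4 in EZ, against 21.7% and 24.0% of all genes. The median log2 difference of the members was 0.24 in DMSO and -0.22 in EZ, and that of all genes -0.06 and -0.01. The comparisons of the 2 genotypes use different libraries in DMSO and EZ, whereas each shares its libraries with the drug comparisons.

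The calls of IGFBP2, IGF2R and INSR kept their direction under every scaling tried. Scaling by library totals moved the median difference of all genes from -0.06 to 0.14 in DMSO and from -0.01 to 0.23 in EZ. Under it the log2 differences in DMSO and EZ were -0.54 and -0.41 for IGF2R, and -0.46 and -0.39 for INSR. In the 10 libraries with little RN7SL1 the differences in DMSO and EZ were 1.21 and 0.87 for IGFBP2, -0.67 and -0.54 for IGF2R, and -0.60 and -0.55 for INSR, all past the threshold. In the other 6, with 1 library in each WT group, they were 0.62 and 0.51, -0.83 and -0.52, and -0.67 and -0.73. Their direction was the same, and the fact that none passed says nothing about stability at this size.

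Some fibroblast markers also differed between the genotypes. The 9 markers summed to 16.8 to 23.4 CPM in the WT libraries and 28.6 to 53.5 CPM in the DKO libraries. Most of this sum was COL1A1, with means of 17.2 CPM in WT DMSO and 32.5 CPM in DKO DMSO. Of the 5 that could be tested, 2 (COL1A1 and LUM) were called higher in DKO in both treatments. Over all genes 8.91% were called higher in DMSO and 9.29% in EZ. COL6A3 was not higher in DKO, with means of 0.982 CPM in WT and 0.946 CPM in DKO in DMSO, and 0.673 and 0.546 CPM in EZ. COL1A2, DCN, PDGFRA, THY1 and FAP stayed under 1 CPM in all 16 libraries. The part of these markers in the differences of the IGF axis was not tested.

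IGF1R, at chr15:98648539-98964530 on the plus strand, did not pass the threshold in any comparison. Its libraries measured 230, 134, 119 and 57.9 CPM in WT DMSO and 166, 147, 132 and 94.6 CPM in WT EZ. DKO DMSO libraries measured 263, 155, 156 and 110 CPM, and DKO EZ libraries 176, 119, 124 and 115 CPM. Replicate 1 was the highest and replicate 4 the lowest library of IGF1R in all 4 groups. The log2 difference of DKO against WT was 0.34 ± 0.34 in DMSO (edgeR adjusted p = 0.551) and -0.01 ± 0.34 in EZ (0.984). The drug changes were -0.00 ± 0.34 in WT (edgeR adjusted p = 0.998) and -0.36 ± 0.34 in DKO (0.746).

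The ratio of IGF1R to INSR per length was 0.388 to 1.75 in WT DMSO and 0.669 to 1.10 in WT EZ. In DKO it was 1.36 to 3.25 in DMSO and 1.28 to 1.76 in EZ. In EZ every DKO library lay above every WT library, while in DMSO the ranges overlapped through WT replicate 1. The drug changes of INSR and IGF2R were small and not called: 0.08 ± 0.10 and -0.02 ± 0.11 on the log2 scale in WT (edgeR adjusted p = 0.778 and 0.965), and 0.11 ± 0.10 and 0.09 ± 0.11 in DKO (0.713 and 0.831).

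**Figure D3:**
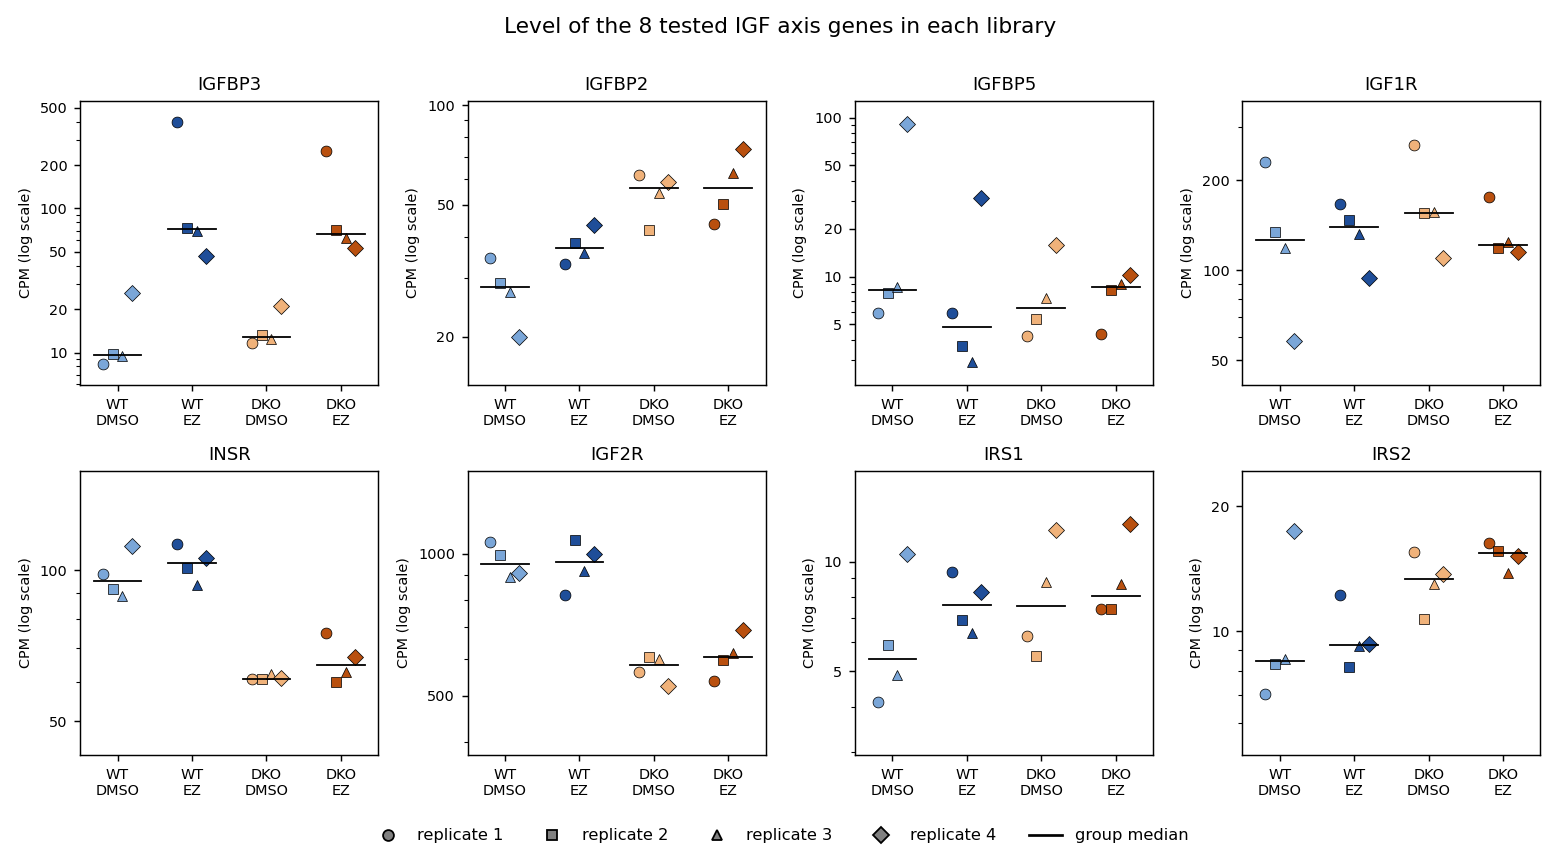
CPM (log axis) of the 8 tested genes in the 4 groups, with 1 point per library, a symbol for each replicate number and a bar at the group median. IGF2R and INSR of all DKO libraries lie below all WT libraries, and IGFBP3 of the EZ libraries lies above the DMSO libraries of the same genotype.

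IRS2, the adaptor with the higher level per length in each of the 16 libraries, was the member nearest to the threshold among those not called between genotypes. WT EZ libraries measured 12.2, 8.18, 9.20 and 9.33 CPM (9.74 ± 1.75, SD, n = 4) and DKO EZ libraries 16.3, 15.6, 13.8 and 15.2 CPM (15.2 ± 1.07). The groups did not overlap, and the log2 difference was 0.65 ± 0.23 (edgeR adjusted p = 0.0559). In DMSO, WT libraries measured 7.05, 8.34, 8.59 and 17.4 CPM and DKO libraries 15.5, 10.7, 13.0 and 13.7 CPM. WT replicate 4 lay above the whole DKO group while the other 3 lay below it. The log2 difference was 0.35 ± 0.23 (edgeR adjusted p = 0.325), and it was 0.78 without WT DMSO replicate 4 (0.00427).

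IRS1 was not called in any comparison. It measured 4.13, 5.90, 4.88 and 10.5 CPM in WT DMSO, 9.36, 6.93, 6.38 and 8.26 CPM in WT EZ, 6.27, 5.52, 8.80 and 12.2 CPM in DKO DMSO, and 7.43, 7.41, 8.68 and 12.7 CPM in DKO EZ. The groups overlapped in all 4 pairwise comparisons, and the log2 differences lay between 0.14 ± 0.29 (edgeR adjusted p = 0.915) and 0.37 ± 0.30 (0.440). Like IGFBP5, IRS1 was highest in replicate 4 in WT DMSO and in both DKO groups.

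**Figure D4:**
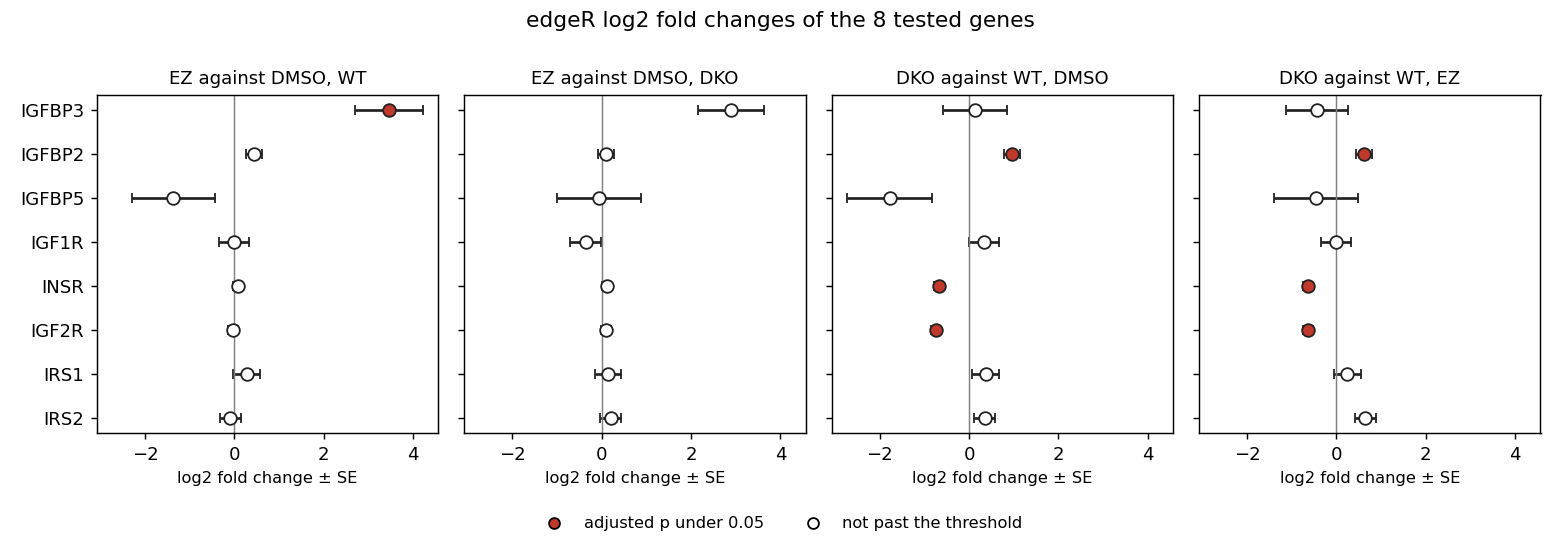
Log2 fold changes ± SE of the 8 tested genes in the 4 pairwise comparisons, from edgeR, with filled points where the adjusted p is under 0.05. IGFBP3 (3.46) is filled for EZ in WT, none for EZ in DKO, and IGFBP2, INSR and IGF2R are filled in both comparisons of the genotypes.

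Some members varied together over the 16 libraries, a description in which libraries share genotype, treatment and replicate number. The Pearson correlation of log2 CPM was 0.88 between IGF2R and INSR, -0.78 between IGFBP2 and INSR, 0.67 between IRS1 and IRS2 and -0.81 between IGFBP5 and IGF1R. IGFBP3 had no correlation beyond 0.42 in size with another member. Among 10680 protein-coding genes with a mean of at least 5 CPM, the genes most like IGFBP3 were ID3 (r = 0.962), GALNT10 (0.951) and CAMK2D (0.938). Those most like IGFBP2 were MYORG (0.951), AIF1L (0.943) and PKP2 (0.939). Those most like IGF2R were SLC16A7 (0.967), ASCC3 (0.963) and FAM110B (0.961), and those most like INSR were ECPAS (0.982), PHLDA3 (0.975) and DSTYK (0.973).

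The ligands themselves were scarce. IGF1 had 2 to 28 counts per library, IGF2 had 1 count over all libraries, INS had none, and IGFBP1 had 1. IGF1 measured 0.836, 0.525, 1.10 and 0.415 CPM in WT DMSO and 0.222, 0.370, 0.232 and 0.214 CPM in WT EZ. These groups did not overlap, which was so for 9.59% of all genes. The log2 change of -1.44 ± 0.56 missed the threshold (edgeR adjusted p = 0.201), as did that in DKO (-1.60 ± 0.57, 0.202). Among the 8 ligands and remaining binding proteins and substrates, 4 could be tested. With EZ 1 of the 4 was called in WT and 0 in DKO, where 3.32% and 1.48% of all genes were called. In DKO against WT 2 were called in DMSO and 1 in EZ, against 18.6% and 20.7% of all genes. The gene called with EZ in WT was IRS4, a further receptor substrate. It measured 0.268 ± 0.0753 CPM in DMSO and 0.846 ± 0.283 CPM in EZ (SD, n = 4), a log2 change of 1.66 ± 0.36 (edgeR adjusted p = 0.0165). That call was lost without WT DMSO replicate 2 (0.0729). IGFBPL1, a protein related to the binding proteins, was higher in DKO by 2.51 ± 0.48 in DMSO (edgeR adjusted p = 0.00136) and 2.51 ± 0.50 in EZ (0.00165). In DMSO IRS4 was also higher in DKO, at 1.37 ± 0.36 (edgeR adjusted p = 0.0123).

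Of 12 tested proteases that cut the binding proteins and inhibitors of such proteases, 3 were higher and 2 lower in DKO in each treatment, where 18.6% of all genes were called in DMSO and 20.7% in EZ. The calls went both ways, and the median log2 difference of the list was -0.00 in DMSO and 0.28 in EZ, against -0.06 and -0.01 for all genes. With EZ in WT 1 was higher, where 3.32% of all genes were called. STC1, an inhibitor of PAPPA proteases, and HTRA1, a serine protease that cuts binding proteins, were higher in both treatments, the protease ADAM12 in DMSO and the protease PAPPA2 in EZ. STC1 differed by 1.93 ± 0.36 in DMSO (edgeR adjusted p = 0.000953) and 2.10 ± 0.37 in EZ (0.000620). The 2 lower in DKO were KLK3 and KLK2, androgen-induced secreted proteases, of which KLK3 (prostate-specific antigen) cuts IGFBP3. KLK3 measured 46.2 ± 28.0 CPM in WT DMSO and 4.25 ± 4.56 CPM in DKO DMSO (SD, n = 4), a log2 difference of -3.48 ± 0.64 (edgeR adjusted p = 0.00159), and the difference in EZ was -4.07 ± 0.69 (0.000802). KLK2 differed by -3.02 ± 0.62 and -3.43 ± 0.65 (edgeR adjusted p = 0.00337 and 0.00183). The 2 are close paralogs, so reads may have been divided between them. HTRA1 was the 1 gene of the list that rose with EZ in WT (1.27 ± 0.33, edgeR adjusted p = 0.0426). This HTRA1 call was lost on leaving out any of 8 libraries, with an adjusted p of up to 0.137 without WT DMSO replicate 2. With the replicate block within genotype HTRA1 and CTSD were higher in WT, and CTSD, the lysosomal protease cathepsin D, in DKO. That fit called 12.1% of all genes in WT and 1691 of 21810 in DKO. The call of ADAM12 was lost when replicate 4 of WT DMSO was left out (edgeR adjusted p = 0.0514), and that of HTRA1 in EZ on leaving out any of 3 libraries (up to 0.0705).

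Of 17 adaptors and inhibitors beside the receptors, none was called by edgeR or DESeq2 with EZ in either genotype. Over all genes edgeR called 3.32% in WT and 1.48% in DKO. The medians of the list were 0.11 in WT and 0.05 in DKO. At an unadjusted p under 0.05 there were 2 of the 17 in WT and 5 in DKO. Of all 21810 genes, 3407 in WT and 2898 (13.3%) in DKO had such a p. The fit with the replicate block within genotype called 12.1% of all genes in WT and 1691 of 21810 in DKO. Of the 17 it called GRB10 higher in WT, and PTPN11 higher and RACK1 lower in DKO. In DKO against WT 2 were higher and 1 lower in DMSO, and 4 higher and 2 lower in EZ, where 18.6% and 20.7% of all genes were called. The DMSO count of 3 of 17 is near that background. SOCS3 and GRB14, inhibitors of receptor signalling, were higher in both, SOCS2 and SOS1 in EZ. PTPN11, a phosphatase of receptor signalling, was lower in both and RACK1, a scaffold protein, in EZ. The EZ calls of PTPN11 and SOCS2 were lost on leaving out any of 15 and 3 libraries (highest edgeR adjusted p 0.281 and 0.0655). SOCS3 differed by 3.40 ± 0.45 in DMSO (edgeR adjusted p = 4.13e-05) and 3.73 ± 0.46 in EZ (2.17e-05). SOCS3 levels were low, with means of 0.183 CPM in WT DMSO and 1.84 CPM in DKO DMSO. Of the IGF2 mRNA-binding proteins, which bind the IGF2 transcript among others, 2 of 3 were tested and IGF2BP2 was higher in DKO. It differed by 2.42 ± 0.44 in DMSO (edgeR adjusted p = 0.000929) and 4.16 ± 0.47 in EZ (8.04e-06), from a mean of 0.221 CPM in WT DMSO.

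Downstream, 30 genes of the PI3K, AKT and mTOR pathway were tested. With EZ 1 was higher in each genotype, where 3.32% of all genes were called in WT and 1.48% in DKO. In DKO against WT 1 was higher and 5 lower in each treatment, with medians of -0.18 in both. This count of 6 of 30 is near the background of 18.6% of all genes in DMSO and 20.7% in EZ. PHLPP1, a phosphatase of AKT, was higher in both treatments. PIK3CB, a catalytic subunit of PI3K, and TSC2, an inhibitor of mTOR, were lower in both. DEPTOR, MTOR and TSC1 were lower in DMSO, and PIK3CD, AKT2 and MLST8 in EZ. PIK3CB differed by -0.66 ± 0.12 in DMSO (edgeR adjusted p = 0.000718) and -0.68 ± 0.12 in EZ (0.000496). The calls of MTOR, TSC1 and AKT2 were lost on leaving out any of 13, 16 and 1 libraries (highest edgeR adjusted p 0.171, 0.286 and 0.0502). The gene called with EZ was PIK3CD, a further catalytic subunit, at 0.66 ± 0.11 in WT (edgeR adjusted p = 0.00344) and 0.47 ± 0.11 in DKO (0.0439). The DKO call of PIK3CD was lost on leaving out any of 13 libraries, with an adjusted p of up to 0.139. With the replicate block within genotype 4 pathway genes were higher in WT (PIK3CD, FOXO3, RPTOR and TSC2) and 3 in DKO (PIK3CD, FOXO3 and DEPTOR). That fit called 12.1% of all genes in WT and 1691 of 21810 in DKO, so the WT count of 4 of 30 is near its background.

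Of 16 tested genes that FOXO factors are known to induce when AKT is inactive, 2 were higher with EZ in WT and 1 in DKO, where 3.32% and 1.48% of all genes were called. SESN1, a stress-induced inhibitor of mTOR signalling, went from 91.8 ± 20.6 to 225 ± 21.1 CPM in WT (SD, n = 4), a log2 change of 1.29 ± 0.18 (edgeR adjusted p = 0.000634). PIK3IP1, an inhibitor of PI3K, rose by 0.90 ± 0.14 in WT (edgeR adjusted p = 0.00205) and by 0.73 ± 0.14 in DKO (0.0163). The DKO call of PIK3IP1 was lost on leaving out any of 3 libraries, with an adjusted p of up to 0.0574 without DKO DMSO replicate 2. The fit with the replicate block within genotype called 12.1% of all genes in WT and 1691 of 21810 in DKO. Of the 16 it called 4 higher in WT (SESN1, PIK3IP1, KLF15 and BCL6). In DKO it called 4 higher (SESN1, PIK3IP1, KLF15 and TRIB1) and 1, CAT, lower. For the DKO response minus the WT response it called 1 of the 16, with a lower value, and 39 of all 21810 genes. The main fit called 0 of the 16 for this difference. In DKO against WT 1 was higher and 4 lower in DMSO, and 1 higher and 5 lower in EZ, where 18.6% and 20.7% of all genes were called. SESN3 was higher in both treatments, BCL6, CCNG2, KLF15 and SESN1 were lower in both, and PIK3IP1 in EZ. The EZ call of PIK3IP1 was lost on leaving out any of 15 libraries (highest edgeR adjusted p 0.251), and those of KLF15 on leaving out any of 4 in DMSO and 3 in EZ (up to 0.104 and 0.0824). BCL6, a transcriptional repressor, differed by -1.02 ± 0.15 in DMSO (edgeR adjusted p = 0.000108), and SESN1 by -1.63 ± 0.18 in EZ (4.98e-06). SESN1 is also a known p53 target.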

How the data were processed

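RNA sequencing of 16 LNCaP libraries was used. The authors deposited raw counts per Ensembl gene ID, 1 column per library. The submitters' processing notes list STAR 2.7.3a and GRCh38. The counting tool, strand setting and annotation were not stated there, so reads of overlapping or antisense genes cannot be told apart. Genes annotated on top of a member held at most 0.524% of its count (CHP1P2 in IGF2R).

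Symbols were found for 60357 of 60676 IDs and GENCODE v29 coordinates for 58503. Groups and replicate numbers come from the sample titles. Counts were analysed with edgeR 4.0.16 (R 4.3.3): filterByExpr (minimum count 10, total 15) left 21810 genes, libraries were scaled by TMM, all 16 entered 1 model with a mean per group (12 residual degrees of freedom, biological coefficient of variation 28.05%), and quasi-likelihood p-values were adjusted by Benjamini-Hochberg over all genes tested, with a threshold of 0.05. CPM are TMM-scaled; per-kilobase levels divide by merged exon length. The method was tested on simulated data. Correlations use log2 CPM with a prior count of 2.

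Pairs of replicates of a group differed by more than sampling noise (chi-square per degree of freedom 4.867 to 88.65), so all were kept. Residuals of libraries with the same replicate number correlated between DMSO and EZ within a genotype (0.33 to 0.62 in WT, 0.40 to 0.66 in DKO). In WT 3 libraries correlated best with their own number, and in DKO 4. The numbers were therefore taken to pair the drug comparisons. The main fit does not use this pairing, and block values are given where they change a call. Alternatives were other scalings, no filter, 2-group fits, replicate blocks, RN7SL1 sets, each library left out and DESeq2 1.42.0. All members are named; from the neighbouring lists up to 3 genes per direction and comparison with the largest changes past the threshold, and for members called the 3 most like genes. Other list genes named where few were called fall outside this limit and were chosen after their values were seen. The members, lists and tests were chosen with earlier results of these data known. Of 138 list entries 137 matched a gene. Promoter sequences are from RefSeq (GRCh38.p14). Protein sequences were not used here.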

Additional observations from a re-analysis of the deposited data

Results flagged for a closer look

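Dixon's ratio was taken on CPM, without a log, for 32 sets of 4 libraries (8 members in 4 groups). At its 95% level, 7 sets had 1 library far from the others. The chance rate of about 1 in 20 assumes independent sets of normally distributed values. Unlogged CPM need not be normal and the members share libraries, so the 7 sets cannot be weighed against that rate. IGFBP3 stood out at 25.8 CPM in WT DMSO replicate 4 (next library 9.69), 399 CPM in WT EZ replicate 1 (next 73.1) and 251 CPM in DKO EZ replicate 1 (next 70.7). IGFBP5 stood out in replicate 4 of both WT groups, at 91.1 CPM in DMSO (next 8.65) and 31.1 CPM in EZ (next 5.93). IGF1R was high in DKO EZ replicate 1 at 176 CPM (next 124). IRS2 was high in WT DMSO replicate 4 at 17.4 CPM (next 8.59). All 7 were the highest library of their group, and each was replicate 1 or replicate 4. In WT DMSO replicate 4 IGFBP3, IGFBP5 and IRS2 were high together, and MKI67 was at 34.0 CPM against 140 to 240 CPM in the other 3. The cause was not tested.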

How the results depend on the processing

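No call of a member turned its direction under any alternative tried. The number of members called with EZ in WT (1, IGFBP3) was 0 with no filter on low counts, in a fit of the 2 groups only, in the 6 libraries with more RN7SL1 and without WT DMSO replicate 1, 2 or 3 or WT EZ replicate 1, so that leaving out 1 library gave 0 to 1; with the replicate block within genotype it was 1, but that was IGFBP5. With EZ in DKO (0) it was 1, IGFBP3, with DESeq2, in a fit of the 2 groups only, without replicate 1 of both EZ groups together and without WT EZ replicate 1 alone (range 0 to 1). Between genotypes (3 in each treatment) it was 0 in both treatments in the 6 libraries with more RN7SL1. There each WT group is 1 library, so lost calls say nothing about stability, and the log2 differences in DMSO and EZ were -0.83 and -0.52 for IGF2R, -0.67 and -0.73 for INSR and 0.62 and 0.51 for IGFBP2. IRS2 in DKO against WT in EZ (edgeR adjusted p = 0.0559) passed under 12 of 27 alternatives, from 0.00378 with library totals to 0.434 in those 6 libraries. The cause was not tested.

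Mean levels that moved by more than 1 SD were IGF2R in DKO DMSO (629 CPM with library totals), INSR in DKO DMSO (63.6 CPM with upper-quartile scaling, 67.1 CPM with library totals) and INSR in WT EZ (92.9 CPM with library totals).

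Counts over all genes moved by more than 1.5 times as follows. EZ in WT (724) gave 436 with no filter, 294 with the 2 groups only, 1135 with DESeq2, 1724 with the replicate block, 2641 with it within genotype, and 371 and 0 in the libraries with less and more RN7SL1. EZ in DKO (322) gave 167 with no filter, 519 with RN7SL1 set as covariate, 701, 1104, 1691, 13 and 0 for DESeq2, both blocks and both RN7SL1 sets. DKO against WT (4058 in DMSO, 4508 in EZ) gave 2548 and 2539 in the set with less RN7SL1 and 386 and 869 in the other. The difference of drug effects (0) gave 4 with DESeq2 and 1 and 39 with the blocks. Across genotypes same-number residuals correlated from -0.07 to 0.67 in DMSO and -0.05 to 0.52 in EZ, so there the number was not taken as a pairing; the replicate block across all groups gave 5868 and 6404 calls and kept the calls of IGFBP2, IGF2R and INSR. It also called IRS2 in EZ (edgeR adjusted p = 0.0260). IGFBP4, IGFBP6 and the ligands are limited by depth.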
